A study of Homo sapiens with 4 samples.

Results

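The genes described here are the amino acid, glucose and monocarboxylate transporters of the solute carrier (SLC) families SLC1, SLC2, SLC3, SLC5, SLC6, SLC7, SLC16, SLC36, SLC38 and SLC43. They were taken by symbol, as the rows of the deposited gene table named SLC, a family number, A and a member number, which gave 99 of 25690 rows. Their transcripts were counted in polyA-enriched RNA of H9, a human embryonic stem cell line, at day 7, when the series calls the cells non-neural ectoderm, from which epidermis, placodes and neural crest arise. The KO-labelled group held 2 H9 libraries with the genotype label TFAP2A knockout, and the WT group held 2 H9 libraries with the genotype label WT. The titles of the KO-labelled libraries name TFAP2C instead of TFAP2A, and the labels name no clone, guide or medium for either group. The labels do not state whether replicates are separate cultures, so the spread behind each p-value may be technical.

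Solute carriers move small molecules across membranes by exchange, by cotransport with sodium or protons, or down a gradient. The SLC2 family (GLUT) carries glucose and related sugars, SLC5 couples sugars, inositol and vitamins to sodium, and SLC16 (MCT) carries lactate, pyruvate, thyroid hormone and aromatic amino acids. Amino acids enter through SLC1, SLC6, SLC7, SLC36, SLC38 and SLC43 proteins, and several SLC7 exchangers reach the cell surface only when bound to a heavy subunit, SLC3A1 or SLC3A2. Embryonic and placental epithelia are known for high glucose uptake through SLC2A1 and SLC2A3.

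Levels are given as CPM, counts scaled to library size, for each library. Library totals were 19305867.5 and 21797850.5 counts in the KO-labelled libraries and 17945210 and 17838204 in WT. TFAP2A had 133 and 121 CPM against 171 and 198 CPM in WT, so most of its transcript remained in the libraries labelled knockout (log2 fold change -0.54, SE 0.07, adjusted p = 0.000125), and TFAP2C had 8.91 and 5.77 CPM against 27.5 and 30.6 CPM in WT. Of 12 surface ectoderm markers 0 rose and 7 fell, with a summed level of 2133 to 2227 CPM in the KO-labelled libraries, against 2955 to 3225 CPM in WT, and KRT8, KRT18, EPCAM and CDH1 were present in every library. Markers of other cell types also differed. The summed level of 10 amnion and trophoblast markers was 139 to 209 CPM in the KO-labelled libraries, against 1814 to 1961 CPM in WT. That of 10 mesenchyme markers was 7915 to 9241 CPM in the KO-labelled libraries, against 10370.0 to 10770.0 CPM in WT. Most of the mesenchyme sum came from COL3A1 and COL1A1. COL3A1 fell to 5151 ± 662 CPM against 6411 ± 231 CPM in WT (SD, n = 2 each). COL1A1 did not pass, at 2883 ± 259 CPM against 3096 ± 14.6 CPM in WT (SD, n = 2 each). The summed level of 8 neural crest markers was 56.9 to 62.4 CPM in the KO-labelled libraries, against 321 to 348 CPM in WT. Most of that was TFAP2B, at 45.7 and 40.5 CPM against 261 and 287 CPM in WT. SOX10, FOXD3 and PAX3 had too few counts to be tested, and SNAI2 did not pass. For 8 endothelium and blood markers the sum was 19.2 to 19.9 CPM in the KO-labelled libraries, against 59.8 to 60.5 CPM in WT. Of the amnion and trophoblast markers tested, 6 of 8 fell, as did 7 of 10 mesenchyme markers. Falls were also seen in 4 of 5 neural crest and 4 of 5 endothelium and blood markers. In the same order, 2, 1, 0 and 0 rose. Among all genes tested, 22.3% fell and 21.9% rose. The lists share genes. TFAP2B is in the surface ectoderm and neural crest lists, and TFAP2C in the surface ectoderm and amnion and trophoblast lists. Neural ectoderm markers moved both ways. Their sum over 10 genes was 959 to 1089 CPM in the KO-labelled libraries, against 2376 to 2622 CPM in WT, most of it DLK1, which fell to 576 ± 72 CPM against 2109 ± 183 CPM in WT (SD, n = 2 each), along with NES and POU3F1, while PAX6, SOX1, SOX2, SOX3 and CDH2 rose, 5 of 8 tested, and the list's median log2 fold change was 1.30. In these bulk libraries, fewer cells of a type and less RNA per cell cannot be told apart, and the part of other cell types in the results below was not tested.

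Of the 99 transporter genes, 71 had enough counts to be tested, and 33 of them were lower and 17 higher in the KO-labelled libraries. Among all 15643 genes tested, 22.3% were lower and 21.9% higher, 44.2% in all, at the same threshold, an adjusted p under 0.05 (quasi-likelihood F-test of edgeR, Benjamini-Hochberg adjusted over all genes tested). The transporters that fell made up 46.5% of those tested and those that rose 23.9%. Their median log2 fold change was -0.30, beside 0.00 for all genes tested. A fall of at least 1 on the log2 scale was seen in 19 transporters, 26.8% of those tested, beside 6.77% of all genes tested. A rise of that size was seen in 6, or 8.45%, beside 4.49%. The libraries of the genotypes did not overlap for 61 of the 71, beside 73.1% of all genes tested. Passing the count filter in only 1 genotype favours a difference, and 10 of the 71 did not reach it in every library of both genotypes. Among the 61 that did, 26 were lower and 15 higher, or 67.2% called, beside 43.8% of the 14605 genes of that kind, and 12 were lower by at least 1 on the log2 scale (19.7%, beside 5.22%) and 4 higher by as much (6.56%, beside 3.26%). By family, falls without any rise were seen in SLC2 (6 of 10 tested), SLC36 (1 of 2) and SLC43 (2 of 3). Few genes were tested in SLC36 and SLC43. In the other families members moved both ways, as the plot of fold changes by family shows.

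**Figure D1:**
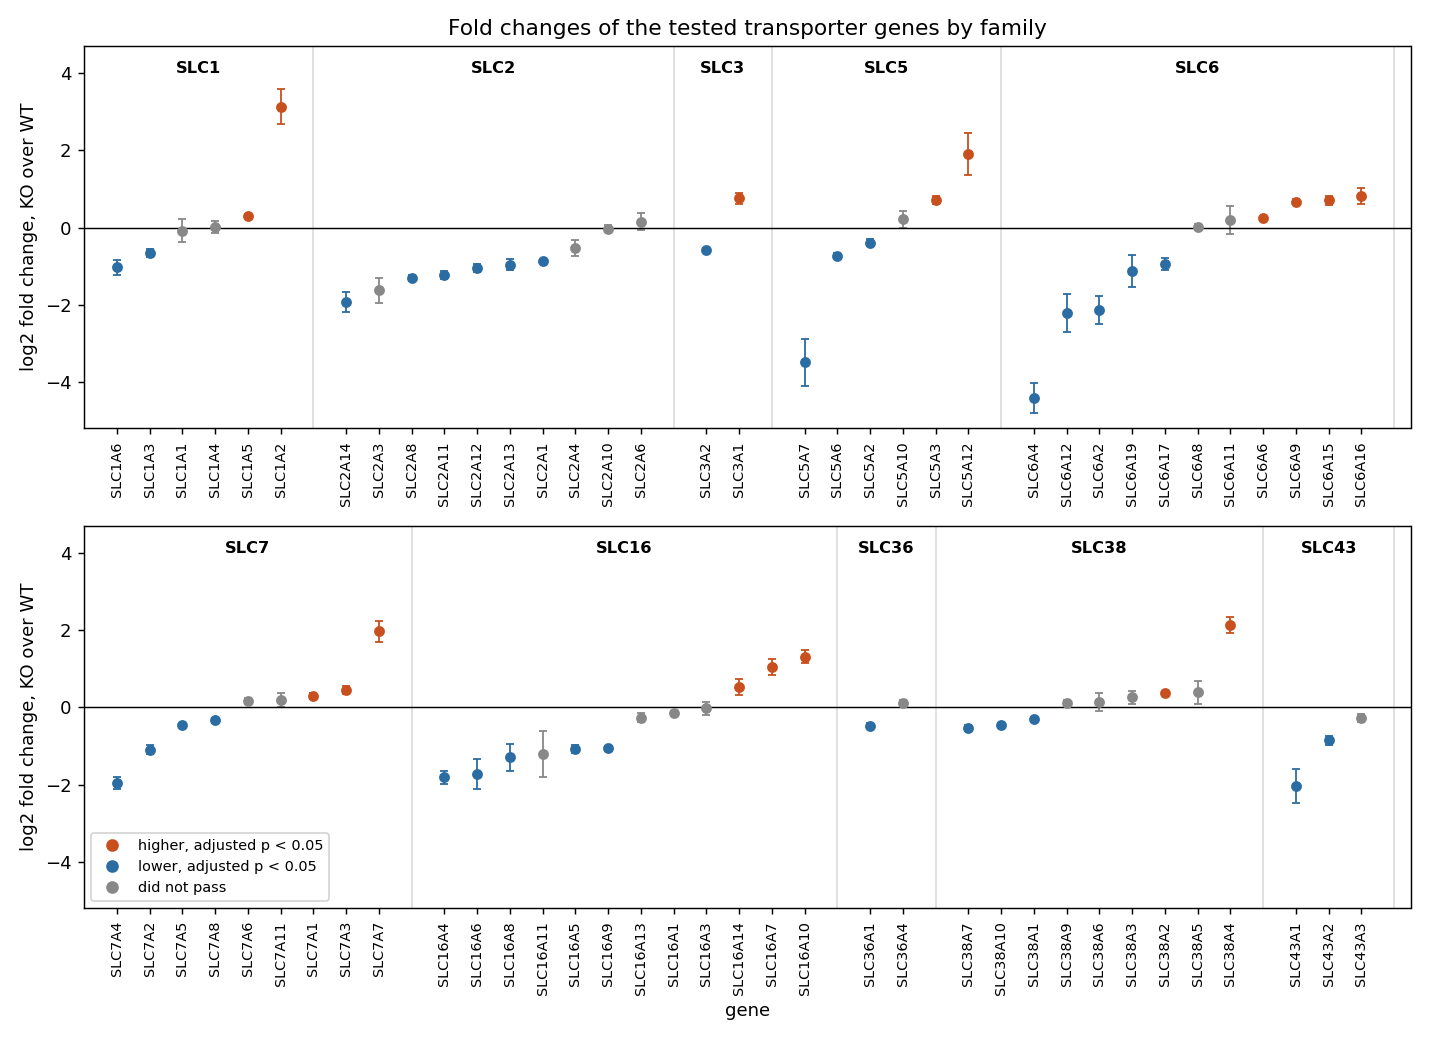
Log2 fold change (KO-labelled over WT) of 70 of the 71 tested transporter genes, ordered within its family, with its standard error as the bar and its call as the colour. Of the 10 SLC2 genes tested 6 were called lower and 0 higher, while SLC1A2 and SLC6A4 mark the highest and lowest values, at 3.13 and -4.41.

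Glucose transporter genes of the SLC2 family were lower in the KO-labelled libraries, and 0 of 10 tested rose. There were 6 that fell (60.0%, beside 22.3% of all genes tested) and 4 that did not pass, and the family's median log2 fold change was -1.003. SLC2A1 (GLUT1; chromosome 1, 43391046 to 43424847, minus strand, hg19), which carries basal glucose uptake in most cells, had 414 and 410.4 CPM in the KO-labelled libraries, against 742 and 765 CPM in the WT libraries. Its libraries agreed closely within each genotype and the groups did not overlap, a difference of 1.83-fold (log2 fold change -0.87, SE 0.05, adjusted p = 3.94e-09). SLC2A3 (GLUT3), the high-affinity transporter of neurons and placenta, had 179 and 112 CPM in the KO-labelled libraries, against 432 and 465 CPM in the WT libraries. The groups did not overlap, but the KO-labelled libraries differed from each other and the gene did not pass (log2 fold change -1.63, SE 0.33, adjusted p = 0.0672). It passed with DESeq2 (adjusted p = 1.19e-05) and with limma-voom (2.61e-05). It also passed without either KO replicate, but such a fit leaves 1 KO-labelled library. The difference between the KO-labelled libraries is then absent, so these fits cannot decide whether SLC2A3 fell.

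SLC2A14 (GLUT14), which lies beside SLC2A3 on chromosome 12 and is a near-identical copy of it, fell to 5.33 and 2.84 CPM against 16.9 and 13.7 CPM in WT (log2 fold change -1.92, SE 0.26, adjusted p = 0.000575). Reads shared between these genes could have been assigned to either, so each value is uncertain. SLC2A8 (GLUT8), which sits on intracellular membranes, had 22.9 and 22.1 CPM in the KO-labelled libraries, against 53.7 and 57 CPM in the WT libraries (log2 fold change -1.30, SE 0.07, adjusted p = 3.97e-09). It was lower in every KO-labelled library than in either WT library, as were the remaining members that fell. SLC2A11 had 13.9 and 12.7 CPM against 30.2 and 31.8 CPM in WT (log2 fold change -1.22, adjusted p = 1.56e-07). SLC2A12 (GLUT12) had 12.3 and 11.3 CPM against 23.8 and 25.1 CPM in WT (log2 fold change -1.05, adjusted p = 1.64e-06), and SLC2A13, the proton-coupled myo-inositol transporter HMIT, had 6.2 and 6.1 CPM against 12 and 11.9 CPM in WT (log2 fold change -0.96, adjusted p = 6.45e-05). These last 3 stood at roughly similar ratios to WT, 2.33-fold, 2.06-fold and 1.95-fold lower. SLC2A10 (GLUT10) was at 24.5 and 25.3 CPM against 25.7 and 25.2 CPM in WT and the lysosomal SLC2A6 at 3.89 and 5.04 CPM against 4.59 and 3.46 CPM in WT, and neither passed (adjusted p = 0.794 and 0.583). SLC2A4, the insulin-responsive GLUT4, had 3.48 and 2.57 CPM against 4.14 and 4.54 CPM in WT and did not pass (log2 fold change -0.53, adjusted p = 0.0584).

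Promoter sequences are shown for SLC2A1 and SLC2A8, the only 2 of the 6 SLC2 genes that fell to hold a match to the motif searched, and for SLC6A4, the transporter with the lowest fold change. They are from RefSeq on GRCh38.p14, from 250 bases before to 50 bases after the gene start, and capitals mark matches to GCCNNNGGC, the palindrome bound by AP-2 factors, searched on both strands.
SLC2A1 (chr1:42958819-42959118, minus strand): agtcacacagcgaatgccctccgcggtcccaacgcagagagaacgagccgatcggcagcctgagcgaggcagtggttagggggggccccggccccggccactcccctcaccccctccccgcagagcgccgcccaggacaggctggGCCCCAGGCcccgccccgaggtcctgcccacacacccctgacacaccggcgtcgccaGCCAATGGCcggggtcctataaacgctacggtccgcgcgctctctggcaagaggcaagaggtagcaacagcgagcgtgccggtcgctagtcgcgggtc
SLC2A8 (chr9:127396919-127397218, plus strand): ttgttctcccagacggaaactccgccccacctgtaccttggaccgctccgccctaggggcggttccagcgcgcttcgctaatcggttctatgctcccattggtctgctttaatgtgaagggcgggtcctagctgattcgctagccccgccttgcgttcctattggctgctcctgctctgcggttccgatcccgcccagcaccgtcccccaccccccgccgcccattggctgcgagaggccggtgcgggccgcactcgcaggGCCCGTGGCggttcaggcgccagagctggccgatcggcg
SLC6A4 (chr17:30235648-30235947, minus strand): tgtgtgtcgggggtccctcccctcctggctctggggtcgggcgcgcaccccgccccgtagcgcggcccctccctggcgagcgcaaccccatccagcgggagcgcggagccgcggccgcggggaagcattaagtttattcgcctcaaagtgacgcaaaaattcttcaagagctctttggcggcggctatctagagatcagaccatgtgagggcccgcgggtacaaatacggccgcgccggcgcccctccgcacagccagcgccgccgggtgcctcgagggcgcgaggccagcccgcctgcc
SLC2A1 held 2 matches, GCCCCAGGC and GCCAATGGC, SLC2A8 held 1, GCCCGTGGC, and SLC6A4 held 0. Promoters were given for 74 of the 99 transporters. A match was found in 8 of 26 transporters that fell (30.8%), 3 of 12 that rose (25.0%) and 6 of 14 that did not pass (42.9%), beside 32.0% of the promoters of all genes tested and 23.0% of all promoters. The share among transporters that fell was close to that among all genes tested. A match is a description of letters and was not measured as binding.

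Genes of glycolysis and lactate metabolism moved both ways. Of 20 tested, 9 rose (45.0%, beside 21.9% of all genes tested) and 5 fell (25.0%, beside 22.3%). The share that fell was near that of all genes tested. In all 14 were called, and the list's median log2 fold change was 0.16. Those that fell included HK1 and HK2, the hexokinases that trap glucose in the cell, with HK1 at 98.5 ± 6.9 CPM against 179.7 ± 8.7 CPM in WT (SD, n = 2 each) and HK2 at 31.2 ± 4.54 CPM against 44.8 ± 3.54 CPM in WT (SD, n = 2 each). ENO2, the neuronal enolase, rose to 37 ± 3.86 CPM against 9.43 ± 1.38 CPM in WT (SD, n = 2 each), while GAPDH, the gene of the list with the highest CPM, was at 2244 ± 32.9 CPM against 2288 ± 35.8 CPM in WT (SD, n = 2 each) and did not pass (adjusted p = 0.693). LDHA, which makes lactate from pyruvate, was higher, at 164 ± 4.42 CPM against 116 ± 5.27 CPM in WT (SD, n = 2 each). TXNIP, which lowers glucose uptake by promoting GLUT1 internalisation, fell to 135 ± 4.18 CPM against 229.6 ± 14.6 CPM in WT (SD, n = 2 each). LDHA, HK2 and TXNIP were named after their values were seen.

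Sodium-coupled SLC5 genes moved both ways, with 3 of 6 tested lower, 2 higher and 1 not passing. SLC5A6, the uptake system for biotin, pantothenate and lipoate, had 101 and 104 CPM in the KO-labelled libraries, against 171 and 167 CPM in the WT libraries (log2 fold change -0.72, SE 0.05, adjusted p = 5.96e-08). SLC5A2, the renal glucose cotransporter SGLT2, had 22 and 20.9 CPM against 29.4 and 26.9 CPM in WT (log2 fold change -0.39, SE 0.09, adjusted p = 0.00292). The groups did not overlap for either gene, but SLC5A2 shares 1296 bp with C16orf58 on the other strand, which was at 85.8 ± 0.574 CPM against 107 ± 0.581 CPM in WT (SD, n = 2 each). Strand-specific counting is nowhere stated, so reads from such overlaps cannot be assigned to either gene. SLC5A3, the sodium myo-inositol cotransporter SMIT1, was higher, at 168 and 147 CPM against 87.2 and 104 CPM in WT (log2 fold change 0.72, SE 0.10, adjusted p = 0.000525). It lies within MRPS6 on the same strand, and MRPS6 was also higher, at 114 ± 1.14 CPM against 87.6 ± 1.7 CPM in WT (SD, n = 2 each), so the values of this pair are uncertain. The choline transporter gene SLC5A7 was close to the detection limit, with 3 and 1 counts in the KO-labelled libraries and 24 and 17 in WT. It passed the count filter only through WT, and was lower in every KO-labelled library (log2 fold change -3.49, SE 0.60, adjusted p = 0.000279). Its log2 fold change was -4.47 without KO replicate 1 and -2.85 without KO replicate 2. SLC5A12, a sodium-coupled monocarboxylate transporter, was at 0.768 and 0.733 CPM against 0.224 and 0.17 CPM in WT (adjusted p = 0.011), a call lost with DESeq2 (adjusted p = 0.136) and without any single library (adjusted p = 0.0574 to 0.0865). SLC5A12 passed the count filter only through the KO-labelled libraries. SLC5A10 did not pass, at 2.66 and 2.93 CPM against 2.46 and 2.38 CPM in WT.

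The SLC16 family showed the largest number of falls of at least 1 on the log2 scale, 6 of 13 tested, and 2 of its members rose by as much. Among all genes tested 6.77% fell and 4.49% rose by at least 1. The families differ in the number tested, and SLC2, with 4 such falls among 10 tested, had a share close to that of SLC16. In all 6 SLC16 genes fell, 3 rose and 4 did not pass. SLC16A9 (MCT9), a carnitine and creatine carrier, had 56.1 and 51.3 CPM in the KO-labelled libraries, against 109.7 and 115 CPM in the WT libraries (log2 fold change -1.06, SE 0.06, adjusted p = 8.37e-09). SLC16A5 (MCT6) had 15.7 and 13.7 CPM against 32 and 30.2 CPM in WT (log2 fold change -1.09, adjusted p = 6.60e-07). SLC16A4 (MCT5) had 3.43 and 3.21 CPM against 10.6 and 12.7 CPM in WT (log2 fold change -1.81, adjusted p = 6.78e-07). Every one of these was lower in both KO-labelled libraries than in either WT library.

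Among low-level members of SLC16, SLC16A6 (MCT7), which exports ketone bodies in zebrafish, had 0.512 and 0.367 CPM against 1.45 and 1.47 CPM in WT (log2 fold change -1.73, adjusted p = 0.00205). It passed the count filter only through WT. It lies within ARSG on the opposite strand, with 24239 bp shared, and ARSG was also lower, at 5.91 ± 0.327 CPM against 12.8 ± 0.432 CPM in WT (SD, n = 2 each). SLC16A8 (MCT3), the lactate carrier of retinal pigment epithelium, had 0.717 and 0.55 CPM against 1.57 and 1.53 CPM in WT (adjusted p = 0.0078), but did not pass with DESeq2 (adjusted p = 0.109), without KO replicate 2 (0.0802) or without WT replicate 1 (0.0500021).

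The members that rose were SLC16A10, SLC16A7 and SLC16A14. SLC16A10 (TAT1), which carries aromatic amino acids and thyroid hormone, had 14 and 10.3 CPM in the KO-labelled libraries, against 4.92 and 4.82 CPM in the WT libraries (log2 fold change 1.31, SE 0.17, adjusted p = 2.62e-05). SLC16A7 (MCT2), a high-affinity pyruvate and lactate carrier of neurons, had 8.45 and 5.77 CPM against 3.24 and 3.63 CPM in WT (log2 fold change 1.04, SE 0.21, adjusted p = 0.00103). Both were higher in each KO-labelled library than in either WT library. SLC16A14 had 4.87 and 4.17 CPM against 2.91 and 3.35 CPM in WT (adjusted p = 0.0459) and did not pass in 6 of 12 alternatives, including those without KO replicate 1 (0.191), WT replicate 1 (0.221) or WT replicate 2 (0.0776). The main lactate carriers did not pass. SLC16A1 (MCT1) had 169.7 and 149 CPM against 179 and 175 CPM in WT (log2 fold change -0.15, adjusted p = 0.0600) and SLC16A3 (MCT4), the exporter of glycolytic cells, had 5.43 and 7.1 CPM against 6.77 and 6.07 CPM in WT (log2 fold change -0.03, adjusted p = 0.906). BSG, the chaperone that brings MCT1 and MCT4 to the membrane, did not pass either, at 572 ± 24.5 CPM against 525 ± 8.01 CPM in WT (SD, n = 2 each) (adjusted p = 0.0627), and EMB, the partner of MCT2, was at 29.9 ± 3.31 CPM against 23.8 ± 0.314 CPM in WT (SD, n = 2 each) (adjusted p = 0.0117), a call lost without KO replicate 1 (0.12) or WT replicate 1 (0.0776) and with DESeq2 (0.0612). In the list of 8 transporter partner genes, 2 of 6 tested rose (33.3%, beside 21.9% of all genes tested) and 1 fell (16.7%, beside 22.3%). The other riser was CLTRN, a partner of SLC6 transporters listed as TMEM27, at 3.61 ± 0.181 CPM against 1.33 ± 0.531 CPM in WT (SD, n = 2 each). SLC16A13 was at 11.8 and 11.4 CPM against 14.9 and 13 CPM in WT and SLC16A11 at 0.102 and 0.458 CPM against 0.783 and 0.567 CPM in WT, and neither passed (adjusted p = 0.0932 and 0.115).

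Of 5 tested genes of thyroid hormone handling, 2 fell and 0 rose. The share called in either direction was near the 44.2% of all genes tested, of which 22.3% fell and 21.9% rose. DIO3, which inactivates thyroid hormone, had 0.307 and 0 CPM against 1.68 and 1.47 CPM in WT (log2 fold change -3.38, SE 0.64, adjusted p = 0.00107; 0.142 with DESeq2), and the receptor gene THRB had 0.717 and 0.321 CPM against 2.57 and 2.61 CPM in WT (log2 fold change -2.33, SE 0.35, adjusted p = 9.71e-05). Both were lower in each KO-labelled library, and neither reached the count filter of about 0.537 CPM in every KO-labelled library. The receptor gene THRA, at 37.7 ± 3.99 CPM against 34.1 ± 2.29 CPM in WT (SD, n = 2 each), and the activating deiodinase gene DIO2, at 3.81 ± 2.8 CPM against 1.33 ± 0.451 CPM in WT (SD, n = 2 each), did not pass (adjusted p = 0.193 and 0.236). DIO2 was named after its values were seen.

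**Figure D2:**
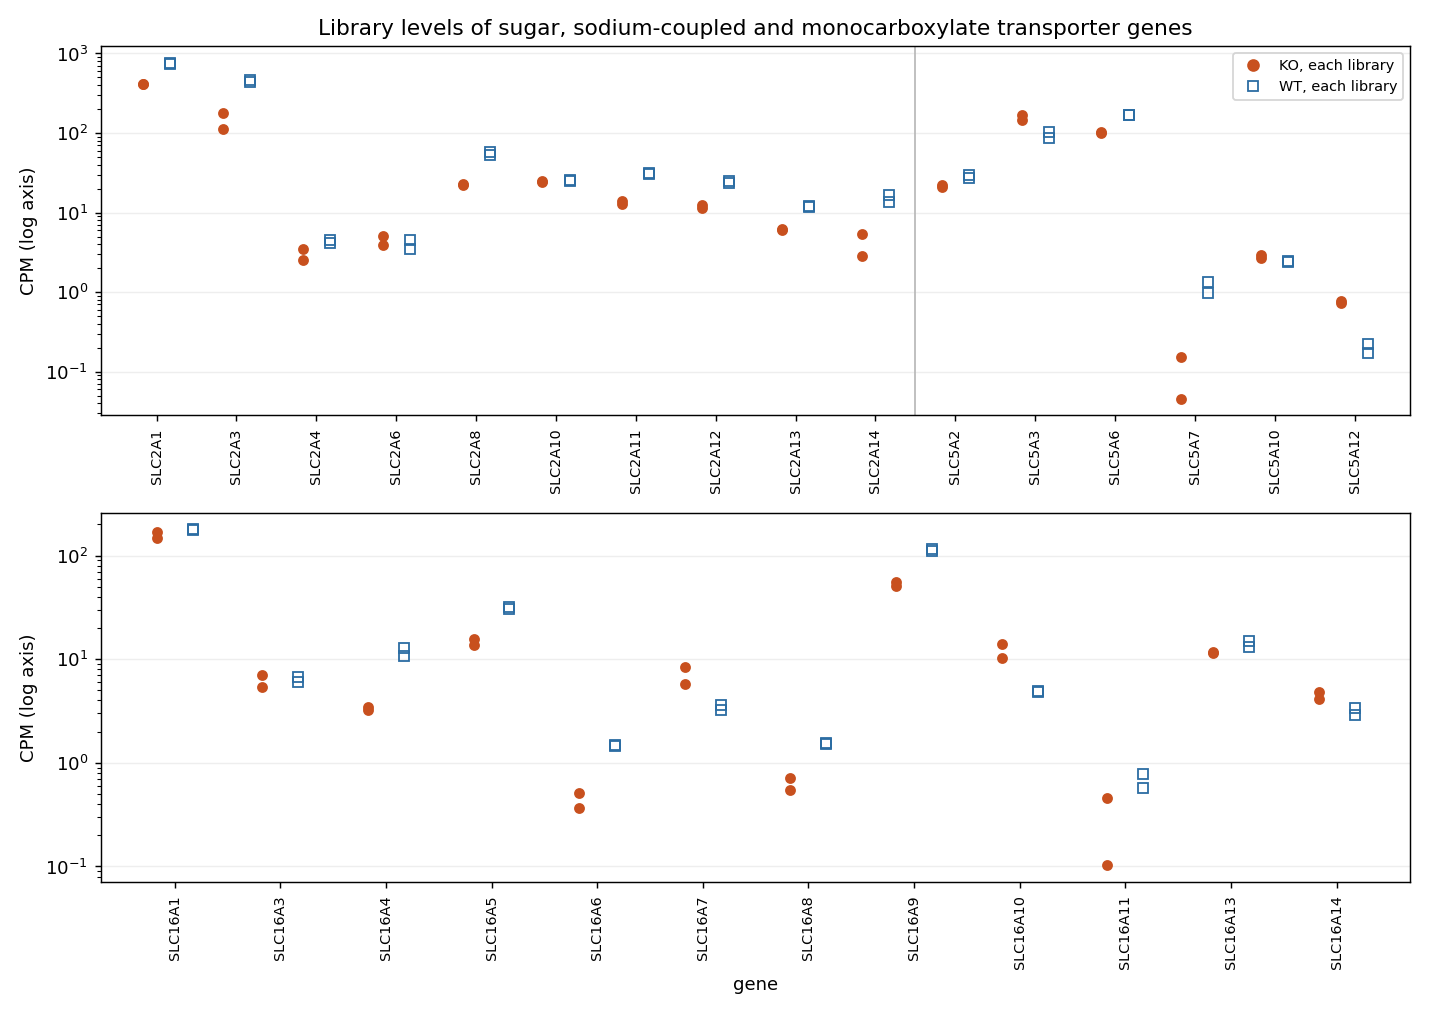
CPM of each tested SLC2 and SLC5 gene (upper panel) and of 12 of the 13 tested SLC16 genes (lower panel) on a log axis, with filled circles for the 2 KO-labelled libraries and open squares for the 2 WT libraries. SLC2A1 lies at 410.4 to 414 CPM against 742 to 765 CPM in WT, and SLC16A4 lies at 3.21 to 3.43 CPM against 10.6 to 12.7 CPM in WT.

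The heavy subunits of the amino acid exchangers moved in opposite directions. SLC3A2 (CD98hc; chromosome 11, 62623484 to 62656355, plus strand, hg19), the partner of the LAT, y+LAT and xCT light chains, had 102 and 103 CPM in the KO-labelled libraries, against 156 and 152 CPM in the WT libraries (log2 fold change -0.59, SE 0.05, adjusted p = 5.59e-07). SLC3A1 (rBAT), the partner in cystine and dibasic amino acid exchange, had 13.7 and 12.7 CPM in the KO-labelled libraries, against 7.61 and 8.05 CPM in the WT libraries (log2 fold change 0.75, SE 0.13, adjusted p = 0.000336). SLC3A1 shares 3215 bp with PREPL on the opposite strand, and PREPL, at 105 ± 1.58 CPM against 62.3 ± 0.899 CPM in WT (SD, n = 2 each), had the same log2 fold change to the second decimal (0.75), so the rise of SLC3A1 cannot be assigned to that gene alone.

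Among SLC7 light chains, the LAT genes fell with SLC3A2. SLC7A5 (LAT1), which exchanges large neutral amino acids such as leucine, had 227 and 210.0 CPM in the KO-labelled libraries, against 309 and 292 CPM in the WT libraries (log2 fold change -0.46, SE 0.05, adjusted p = 9.17e-06). SLC7A8 (LAT2) had 80.05 and 88.1 CPM against 103 and 109 CPM in WT (log2 fold change -0.33, SE 0.06, adjusted p = 0.000695). The falls were moderate, 1.38-fold and 1.26-fold, and beyond the spread of the libraries. SLC7A7 (y+LAT1), which exports cationic amino acids in exchange for neutral ones, rose to 5.53 and 9.17 CPM against 1.73 and 2.04 CPM in WT, 3.89-fold higher (log2 fold change 1.96, SE 0.27, adjusted p = 9.49e-05), although its KO-labelled libraries differed from each other. Its relative SLC7A6 (y+LAT2) had 53 and 50.2 CPM against 47.4 and 44.8 CPM in WT and did not pass (adjusted p = 0.075). SLC7A11 (xCT), the cystine and glutamate exchanger, had 11.1 and 7.24 CPM against 7.83 and 8.22 CPM in WT and did not pass (adjusted p = 0.465).

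The cationic amino acid transporters of SLC7 split. SLC7A2 (CAT2), which takes up arginine and lysine, had 99.4 and 77.3 CPM in the KO-labelled libraries, against 182 and 195 CPM in the WT libraries (log2 fold change -1.10, SE 0.13, adjusted p = 0.00155), and SLC7A4, a CAT-like protein without a settled substrate, had 3.28 and 3.21 CPM against 12 and 13.2 CPM in WT (log2 fold change -1.96, SE 0.16, adjusted p = 1.71e-07). SLC7A1 (CAT1), the general arginine transporter, was higher, at 66.2 and 66.9 CPM against 55.8 and 53 CPM in WT (log2 fold change 0.29, SE 0.07, adjusted p = 0.00223), and so was SLC7A3 (CAT3), at 17.5 and 17.4 CPM against 13.3 and 12.3 CPM in WT (log2 fold change 0.45, SE 0.11, adjusted p = 0.00428). The falls exceeded 1 on the log2 scale, whereas the rises were 1.22-fold and 1.36-fold. Of the 9 SLC7 genes tested, 4 fell (44.4%, beside 22.3% of all genes tested), 3 rose (33.3%, beside 21.9%) and 2 did not pass.

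SLC38 is a family of sodium-coupled neutral amino acid transporters. Of its 9 tested members 3 were lower (33.3%, beside 22.3% of all genes tested), 2 higher (22.2%, beside 21.9%) and 4 did not pass. The share that was higher was near that of all genes tested. In this family 3 genes lie side by side on chromosome 12. SLC38A1 (SNAT1; 46576841 to 46663208, hg19), a glutamine transporter, had 416 and 378 CPM in the KO-labelled libraries, against 480.5 and 494 CPM in the WT libraries (log2 fold change -0.30, SE 0.06, adjusted p = 0.000553). SLC38A2 (SNAT2; 46751971 to 46766645), which cells induce when amino acids are short, had 379 and 375 CPM in the KO-labelled libraries, against 289 and 290.3 CPM in the WT libraries (log2 fold change 0.38, SE 0.05, adjusted p = 1.62e-05). SLC38A4 (SNAT4; 47158544 to 47219780), a transporter of placenta and liver that is imprinted in mouse, had 6.56 and 6.32 CPM against 1.51 and 1.42 CPM in WT (log2 fold change 2.13, SE 0.21, adjusted p = 1.31e-06). In this cluster 1 gene fell and its neighbours rose, SLC38A4 by 4.4-fold, and in all 3 the libraries of the genotypes did not overlap. Of the 10 tested genes around SLC38A4, 5 on either side in order of position, 6 were also higher, beside 21.9% of all genes tested. Other members of the cluster were not left out of these neighbours.

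Of the transporters described here as lysosomal, SLC38A7 and SLC36A1 fell, and SLC38A9 and SLC2A6 did not pass. SLC38A7 (SNAT7), which exports glutamine from lysosomes, had 27.3 and 26.2 CPM against 36.8 and 40.8 CPM in WT (log2 fold change -0.53, SE 0.08, adjusted p = 0.000102). SLC36A1 (PAT1), a proton-coupled exporter of small amino acids from lysosomes, had 33.5 and 35.4 CPM against 46 and 49.9 CPM in WT (log2 fold change -0.48, SE 0.07, adjusted p = 0.000113). Both were lower in each KO-labelled library than in either WT library. SLC38A9, the lysosomal arginine sensor upstream of mTORC1, had 27.6 and 28.4 CPM against 25.9 and 26.3 CPM in WT and did not pass (adjusted p = 0.345). Among the remaining members of SLC36 and SLC38, SLC36A4 did not pass, at 36.2 and 33.5 CPM against 30.5 and 34.6 CPM in WT (adjusted p = 0.376). SLC38A10 was lower, and had 141 and 131 CPM against 184 and 188 CPM in WT (log2 fold change -0.45, SE 0.05, adjusted p = 9.07e-06). SLC38A3, SLC38A5 and SLC38A6, with log2 fold changes of 0.26, 0.39 and 0.14, did not pass.

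The facilitated large neutral amino acid transporters of SLC43 were lower. SLC43A2 (LAT4) had 13.8 and 13.2 CPM against 26.1 and 23 CPM in WT (log2 fold change -0.86, SE 0.11, adjusted p = 1.27e-05), and SLC43A1 (LAT3) had 0.205 and 0.367 CPM against 1.23 and 1.19 CPM in WT (log2 fold change -2.04, SE 0.45, adjusted p = 0.00193). SLC43A1 passed the count filter only through WT. SLC43A3, a purine nucleobase transporter that lies near SLC43A1 on chromosome 11, had 15.4 and 14.6 CPM against 17 and 19.4 CPM in WT and did not pass (adjusted p = 0.0516).

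Glutamate transporters of SLC1 moved in different directions. SLC1A3 (EAAT1), a glutamate transporter of glia and radial glia, had 34.7 and 33.5 CPM in the KO-labelled libraries, against 47.4 and 59.8 CPM in the WT libraries (log2 fold change -0.65, SE 0.10, adjusted p = 0.000382). SLC1A6 (EAAT4), known from Purkinje cells, had 2.97 and 2.7 CPM against 6.26 and 5.33 CPM in WT (log2 fold change -1.03, SE 0.19, adjusted p = 0.000593). SLC1A2 (EAAT2), the main glutamate transporter of astrocytes, was higher, with 49 and 33.5 counts in the KO-labelled libraries and 4 and 4 in WT (log2 fold change 3.13, SE 0.46, adjusted p = 6.48e-05). The EAAT gene with the most counts fell, and the one that rose was near the detection limit in WT and passed the count filter only through the KO-labelled libraries. SLC1A5 (ASCT2), an exchanger that brings glutamine into dividing cells, had 108 and 113 CPM in the KO-labelled libraries, against 90.5 and 88.3 CPM in the WT libraries (log2 fold change 0.30, SE 0.06, adjusted p = 0.000666). SLC1A1 (EAAT3) and SLC1A4 (ASCT1) did not pass, at 2.41 and 1.47 CPM against 2.12 and 1.93 CPM in WT and 8.09 and 7.97 CPM against 7.49 and 8.39 CPM in WT (adjusted p = 0.848 and 0.941).

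**Figure D3:**
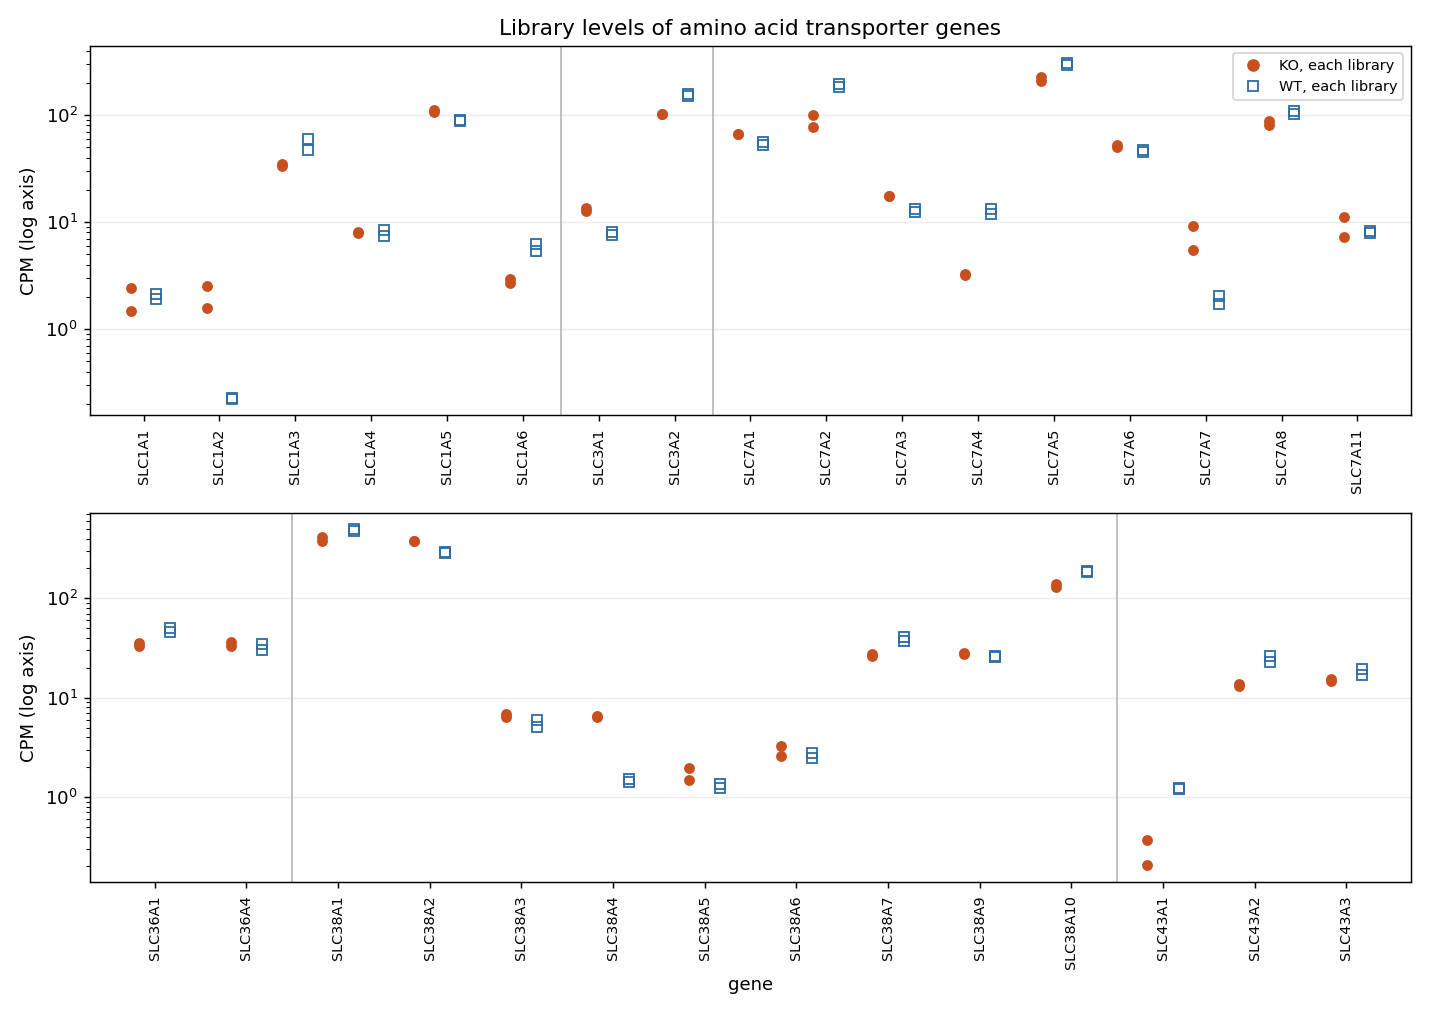
CPM of each tested SLC1, SLC3 and SLC7 gene (upper panel) and SLC36, SLC38 and SLC43 gene (lower panel) on a log axis, with filled circles for the 2 KO-labelled libraries and open squares for the 2 WT libraries. SLC7A7 and SLC38A4 stand above WT, and SLC7A4, SLC7A2 and SLC43A1 below it.

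Genes that respond to or act on amino acids were read from lists of their own. Among 21 tested targets and relatives of ATF4, the transcription factor of the amino acid response, 9 rose and 4 fell. The 42.9% that rose compares with 21.9% of all genes tested. The share that fell was not above the 22.3% of all genes tested. In all 61.9% were called, beside 44.2% of all genes tested, and the list's median log2 fold change was 0.09. ATF4 itself was at 212 ± 8.95 CPM against 224 ± 12.8 CPM in WT (SD, n = 2 each) and ASNS, the asparagine synthetase gene and a classical target, at 23.8 ± 1.62 CPM against 22.4 ± 1.53 CPM in WT (SD, n = 2 each), and neither passed (adjusted p = 0.287 and 0.489). Of the serine synthesis genes in the list, PHGDH was higher, at 485 ± 15.6 CPM against 397 ± 3.34 CPM in WT (SD, n = 2 each), as was PSAT1, at 96.7 ± 1.98 CPM against 53.9 ± 2.46 CPM in WT (SD, n = 2 each), and PSPH did not pass, at 25.7 ± 1.16 CPM against 26.5 ± 1.81 CPM in WT (SD, n = 2 each) (adjusted p = 0.700). STC2, a secreted glycoprotein gene, fell to 26.4 ± 2.68 CPM against 60.3 ± 5.45 CPM in WT (SD, n = 2 each), and ALDH1L2, a mitochondrial folate enzyme, was at 1.06 ± 0.459 CPM against 0.422 ± 0.115 CPM in WT (SD, n = 2 each) (adjusted p = 0.0385, lost without KO replicate 1, WT replicate 1 or WT replicate 2, at 0.362, 0.0898 and 0.200, with DESeq2, at 0.213, and with limma-voom, at 0.0635). ATF4, ASNS, PSAT1 and PSPH were named after their values were seen.

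Of 20 genes that signal amino acid supply to mTORC1, 8 fell and 1 rose, and the median on the log2 scale was -0.13. The 45.0% called in either direction is near the 44.2% of all genes tested. Of all genes tested, however, 22.3% fell and 21.9% rose, so the directions were less even in this list. RRAGD, a Rag GTPase, rose to 10.02 ± 1.33 CPM against 4.16 ± 0.596 CPM in WT (SD, n = 2 each), the sestrin gene SESN3 fell to 265 ± 33.1 CPM against 378 ± 4.24 CPM in WT (SD, n = 2 each), and CASTOR2, a paralog of the arginine sensor CASTOR1 listed as GATSL2, was at 1.1 ± 0.256 CPM against 2.42 ± 1.17 CPM in WT (SD, n = 2 each) (adjusted p = 0.0234), a call lost without KO replicate 1 (0.149), KO replicate 2 (0.0538) or WT replicate 1 (0.366), with DESeq2 (0.0973), with limma-voom (0.0565) and with a replicate block (0.0585). The count of falls in this list was 4 without either KO replicate, 3 without WT replicate 1 and 3 with DESeq2. Of 15 tested genes of glutamine, glutamate and glutathione metabolism, 7 rose and 0 fell, and the median on the log2 scale was 0.20. The 46.7% called is near that of all genes tested, of which 21.9% rose. The glutathione reductase gene GSR rose to 82.1 ± 1.25 CPM against 57 ± 4.98 CPM in WT (SD, n = 2 each), while GLUL, which makes glutamine, was at 417 ± 4.5 CPM against 381 ± 12 CPM in WT (SD, n = 2 each) (adjusted p = 0.0505).

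Neurotransmitter and osmolyte transporters of SLC6 included the lowest fold change of all transporters tested. SLC6A4 (SERT; chromosome 17, 28521337 to 28562986, minus strand, hg19), the serotonin transporter, which is also found in placenta, had 6.5 and 2.5 counts in the KO-labelled libraries and 79 and 72.5 in WT, or 0.307 and 0.0917 CPM in the KO-labelled libraries, against 4.42 and 4.08 CPM in the WT libraries. Both KO-labelled libraries were far below both WT libraries (log2 fold change -4.41, SE 0.38, adjusted p = 3.28e-07), and the log2 fold change was -5.43 without KO replicate 1 and -3.76 without KO replicate 2. SLC6A2 (NET), the noradrenaline transporter, had 0.41 and 0.412 CPM against 1.73 and 1.93 CPM in WT (log2 fold change -2.14, SE 0.36, adjusted p = 0.000257). SLC6A12 (BGT1), a betaine and GABA transporter, had 0.358 and 0.137 CPM against 1.06 and 1.25 CPM in WT (log2 fold change -2.22, SE 0.49, adjusted p = 0.00212), with a log2 fold change of -3.01 without KO replicate 1. These 3 genes, and SLC6A19 below, passed the count filter only through WT. SLC6A17, a vesicular transporter of neutral amino acids in neurons, had 5.79 and 6.97 CPM against 11.7 and 12.8 CPM in WT (log2 fold change -0.94, SE 0.15, adjusted p = 0.000129). SLC6A19 had 0.41 and 0.458 CPM against 1.01 and 0.907 CPM in WT (adjusted p = 0.0422), a call lost in 7 of 11 alternatives, among them leaving out any single library (adjusted p = 0.114 to 0.181).

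The other tested SLC6 genes were higher or did not pass. SLC6A9 (GLYT1), the glycine transporter, had 39.3 and 38.6 CPM in the KO-labelled libraries, against 25.6 and 24.1 CPM in the WT libraries (log2 fold change 0.65, SE 0.08, adjusted p = 1.11e-05). SLC6A15, which takes up branched-chain amino acids and proline, had 16.6 and 18.8 CPM against 11.2 and 10.5 CPM in WT (log2 fold change 0.70, SE 0.12, adjusted p = 0.000237). Each was higher in both KO-labelled libraries than in either WT library. SLC6A6 (TAUT), the taurine transporter, had 82.5 and 87.8 CPM against 70.6 and 73.8 CPM in WT, a 1.18-fold difference that did not pass without KO replicate 2 (adjusted p = 0.0591) or WT replicate 1 (0.0764). SLC6A16 had 6.45 and 5.36 CPM against 3.97 and 2.72 CPM in WT (adjusted p = 0.00606, and 0.075 without WT replicate 2). SLC6A8, the creatine transporter, was at 47.5 and 46.4 CPM against 46.9 and 46.2 CPM in WT and did not pass (log2 fold change 0.01, adjusted p = 0.89), with the reservation that near-identical copies of it exist on chromosome 16. SLC6A11 did not pass either, at 0.922 and 1.19 CPM against 0.783 and 1.08 CPM in WT. Among 13 tested enzymes of creatine, taurine, polyamine and glycine metabolism, 4 rose and 4 fell, 30.8% each. In all 61.5% were called, beside 44.2% of all genes tested, of which 21.9% rose and 22.3% fell. ODC1, the first enzyme of polyamine synthesis, rose to 445 ± 0.572 CPM against 258 ± 12.5 CPM in WT (SD, n = 2 each). CKMT1A, a mitochondrial creatine kinase gene with a near-identical copy, was at 0.363 ± 0.00576 CPM against 1.07 ± 0.547 CPM in WT (SD, n = 2 each) (adjusted p = 0.0188), a call lost without KO replicate 1 (0.0915), KO replicate 2 (0.0991) or WT replicate 1 (0.315) and with DESeq2 (0.138). The falls of this list numbered 2 without KO replicate 1 or WT replicate 2 and 1 without KO replicate 2, and the rises 2 without WT replicate 2.

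**Figure D4:**
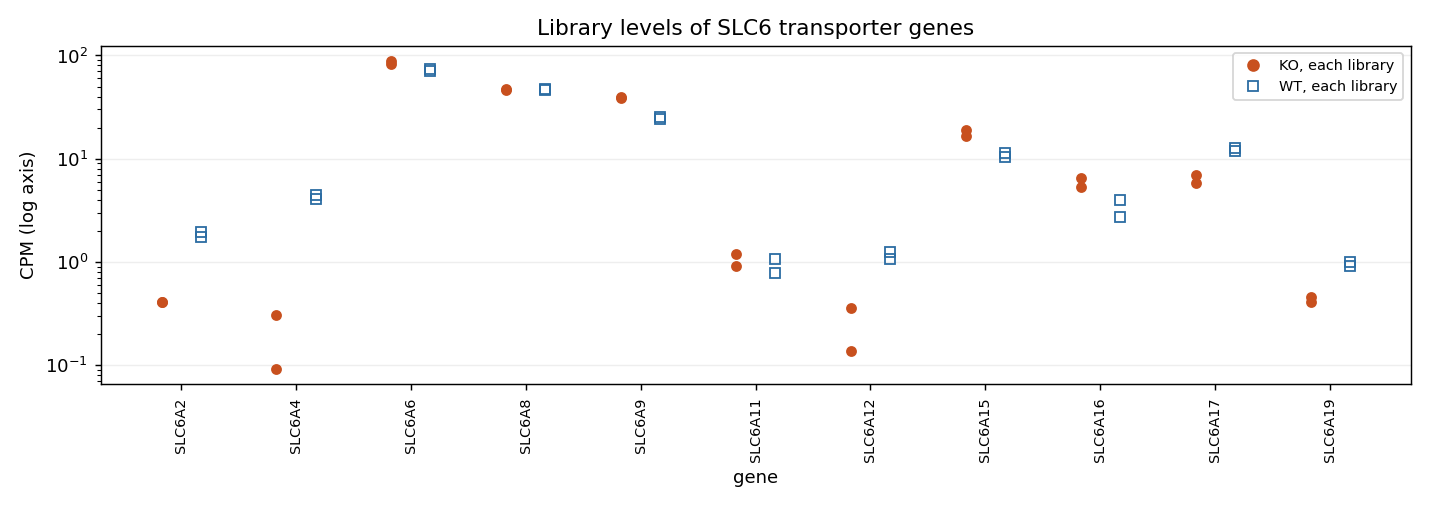
CPM of each of the 11 tested SLC6 genes on a log axis, with filled circles for the 2 KO-labelled libraries and open squares for the 2 WT libraries. SLC6A9 and SLC6A15 lie above WT, SLC6A8 beside it and SLC6A17 below it, and SLC6A4 shows the widest gap.

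Per length of annotated exons, SLC2A1 was the most abundant transporter transcript in both genotypes, at 103 CPM per kb in the KO-labelled libraries and 189 CPM per kb in WT. SLC2A3 came next in WT but not in the KO-labelled libraries, at 37.2 CPM per kb in the KO-labelled libraries and 115 CPM per kb in WT. SLC38A2 stood next to SLC2A1 in the KO-labelled libraries, at 75.3 CPM per kb in the KO-labelled libraries and 57.9 CPM per kb in WT. SLC7A5 was at 47.6 CPM per kb in the KO-labelled libraries and 65.5 CPM per kb in WT, SLC38A1 at 42.5 CPM per kb in the KO-labelled libraries and 52.3 CPM per kb in WT and SLC3A2 at 38.6 CPM per kb in the KO-labelled libraries and 58.1 CPM per kb in WT. SLC16A1 was at 34.2 CPM per kb in the KO-labelled libraries and 37.9 CPM per kb in WT. These are levels, with no test of their order.

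The remaining 28 transporters could not be tested. The 7 with 0 counts in all 4 libraries included SLC2A2, SLC2A7, SLC6A14, SLC7A13, SLC36A2 and SLC38A11, and the 3 counts that such a count allows by counting error correspond to 0.137 to 0.170 CPM. SLC5A1 (SGLT1) had 8 and 2 counts in the KO-labelled libraries and 0 and 0 in WT, and SLC5A9 had 4.5 and 1.5 counts in the KO-labelled libraries and 9 and 11 in WT. SLC7A9, the light chain that pairs with SLC3A1, had 5.5 and 9.5 counts in the KO-labelled libraries and 4 and 8.5 in WT, and SLC7A10 had 6.5 and 9.5 counts in the KO-labelled libraries and 7.5 and 8.5 in WT. The others had at most 8.5 counts in any library.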

How the data were processed

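PolyA-selected RNA of 4 H9 libraries was prepared with TRIzol, RNeasy columns and a KAPA kit, per the labels' protocols. The authors deposited 1 table of estimated counts per gene with no normalization, in steps of 0.5, of which 37.0% were not whole. The submitters' processing notes name TopHat, HOMER, DESeq2 and hg38, without versions or roles. No label or header gives the annotation, the use of strand or the counting settings. Of 23017 symbols also in GENCODE v29, 4.32% had a start no more than 2000 bp from that in GRCh38, and 42 rows carry hg19-style contig names, so the table's positions are printed as hg19. Columns were matched to samples by name, and groups came from the genotype label.

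Counts were rounded, filtered with filterByExpr (15643 genes kept, about 0.537 CPM or more in 2 libraries) and TMM-scaled. The model was genotype only, fitted in edgeR 4.0.16 under R 4.3.3 by robust glmQLFit and glmQLFTest, and p-values were Benjamini-Hochberg adjusted over all genes tested, with a threshold of 0.05. The script was tested on simulated counts. CPM use TMM-scaled totals. Each SE is the log2 fold change's size divided by the square root of F. Replicates differed by more than sampling noise (chi-square per degree of freedom 4.35 in KO-labelled libraries and 4.51 in WT). Exon lengths are the union of GENCODE v29 basic exons. Alternatives were limma-voom 3.58.1, DESeq2 1.42.0, other scaling and filters, unrounded counts, a replicate block and leaving out each library.

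Members and lists were chosen with earlier results of these data known. Genes described in full are, per family, up to 4 called members with the largest change, no overlap and at least 1 CPM in the higher group, the 2 members with the highest CPM, and both heavy subunits, and from each list the 2 called genes with the largest change and the gene with the highest CPM. Other genes were chosen after their values were seen. Of 107 symbols in the 7 pathway lists, BMT2 was not found, and 3 were found under older symbols. A few genes are counted in the totals but not reported here by name or plotted.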

Additional observations from a re-analysis of the deposited data

How the results depend on the processing

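Over 12 other fits, 14 to 18 transporters were higher and 31 to 36 lower in the KO-labelled libraries, beside 17 and 33. Leaving out each library in turn gave 14 to 16 higher and 32 to 35 lower, 16 and 32 with a replicate block, and no transporter with a call changed direction. Requiring in addition a log2 change of 1 or more in size left 6 higher and 19 lower, by construction fewer. Of the 50 called transporters, 44 kept their call in every alternative that tested them, and SLC5A12, SLC6A6, SLC6A16, SLC6A19, SLC16A8 and SLC16A14 lost it in 1 or more. Of the 21 that did not pass, 6 passed in at least 1 alternative (SLC2A3, SLC2A4, SLC7A11, SLC16A1, SLC16A11 and SLC43A3). The cause of these changes was not tested. Among counts by family, 6 of 240 moved by over 1.5 times, all of them the SLC5 count of rises, which was 1 in place of 2. Replicate numbers shared no deviation (correlation -0.05 between same-numbered libraries), so the block is a check only. With 2 libraries a group, differences in transporters of a few counts rest on counting error and on these libraries alone.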

Other observations

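Some transporters lay among genes that moved with them. Of the 10 tested genes around SLC2A8 on chromosome 9, 5 on either side, 9 were also lower in the KO-labelled libraries. The median log2 fold change over these neighbours was -0.34. Near SLC6A2 on chromosome 16, 7 of 10 were also lower, as were 7 of 10 near SLC43A2 on chromosome 17. Among all genes tested 22.3% were lower. Over all called transporters, the median number of neighbours that moved the same way was 3 of 10, both for those that fell and for those that rose.

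A search added after the data were seen looked for TGATGNAAN, the letters of the ATF4 response element, on both strands of the same RefSeq promoter windows. It was found in 3 of 26 transporters that fell (SLC1A3, SLC3A2 and SLC38A1) and in 1 of 12 that rose (SLC7A1), beside 1.58% of the promoters of all genes tested and 3.67% of all promoters. These counts are small, and a match is a description of letters.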
